A study of Mus musculus with 6 samples.

Results

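Amino acid transporters of the solute carrier families Slc1, Slc3, Slc6, Slc7, Slc36, Slc38 and Slc43 were followed in mouse muscle cells after knockdown of SENP7, a peptidase that takes the small modifier SUMO off its target proteins. The members were all genes of the deposited table whose name places them in one of these families, apart from the creatine carrier Slc6a8, which gave 60 of 55401 genes. Of these, 10 were listed at 0 in all 6 libraries, 19 had reads but too few for the test, and 31 were tested. RNA-seq libraries came from 3 biological replicates of C2C12 myotubes treated for 3 days with 100 pmol SENP7 siRNA and from 3 treated in the same way with GL2 siRNA, which is directed against firefly luciferase and served as control. Both groups were the same myoblast line, differentiated in medium with little horse serum, so the data describe a single cell line with a partial knockdown. Values are normalized read counts, in which a count of 1 is about 1 read, and folds are ratios of their group means. The test was limma on log2(normalized count + 1) with Benjamini-Hochberg adjustment over all tested genes and a threshold of 0.05, and every adjusted p below comes from it.

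Amino acids cross the plasma membrane on carriers that differ in what drives them. Sodium-coupled carriers such as those of the Slc38 and Slc6 families pull amino acids into the cell, while exchangers such as Slc7a5 bound to the heavy chain Slc3a2 trade an internal amino acid for an external one. Carriers on the lysosome return amino acids from protein breakdown and take part in signalling to the growth kinase mTORC1. In muscle, leucine and glutamine entering on these carriers feed protein synthesis, and taurine is held at high concentration by Slc6a6.

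The libraries held between 25223218 and 30865945 reads assigned to genes. Senp7 itself averaged 300.3 ± 40.2 normalized counts in SENP7 siRNA libraries and 607 ± 46.9 in control siRNA libraries (SD, n = 3 each; log2 fold change -1.02 ± 0.11 SE, adjusted p = 0.000428). All 8 myotube markers examined were tested, and their summed level was 604878 to 675526 in SENP7 siRNA libraries and 494479 to 553992 in control siRNA libraries, with Ckm and Mymk higher after SENP7 siRNA. The 8 markers of undifferentiated or cycling myoblasts summed to 7420 to 9113 with SENP7 siRNA and 7681 to 10021 with control siRNA, and 2 of them, Pax7 and Id1, rose. Of 6 adipocyte markers Pparg alone was tested and each of the others had 3 reads or fewer, with a list sum of 109 to 117 in SENP7 siRNA libraries and 98.2 to 117 in control siRNA libraries. The 6 leukocyte and endothelial markers summed to 65.3 to 71.9 with SENP7 siRNA and 52.4 to 70.1 with control siRNA. Cd68 and Itgam were tested, and Itgam rose, having met the filter on counts solely through the SENP7 siRNA libraries (46 reads there, against 20 in control siRNA libraries). Of the untested ones, Cdh5 had 18 reads with SENP7 siRNA and 12 with control siRNA, Pecam1 had 6 and 4 in that order of groups, Ptprc had 3 in all, and Tie1 was at 0 in every library. The part of these marker differences in the transporter results was not tested. RNA was taken from whole cultures, so fewer cells of a kind and less transcript per cell cannot be told apart.

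SENP7 siRNA changed 10 of the 31 tested transporter genes (32.3%), against 20.9% of all 14668 genes tested. The genes that rose were Slc6a9, Slc1a3 and Slc6a13 (3 members; 10.2% of all tested genes rose), and those that fell were Slc6a19, Slc6a17, Slc36a4, Slc7a7, Slc1a4, Slc38a2 and Slc38a10 (7 members; 10.7% of all tested genes fell). Slc6a13 was among the tested members solely through its SENP7 siRNA libraries, so its place in these counts was partly set by the filter. The median log2 fold change of the tested members was 0.06, beside -0.0025 over all tested genes. The 3 values of each group did not overlap in 12 of the 31 members, close to the 39.6% of all tested genes for which this held. The falling members were 4 without SENP7 siRNA replicate 1, 3 without SENP7 siRNA replicate 2 and 4 without control siRNA replicate 2, and the rising members were 9 without control siRNA replicate 3. In the authors' deposited table, 9 members had an adjusted p below 0.05, and these were the same genes without Slc7a7. Of all 27493 genes given an adjusted p there, 9.26% were below 0.05. That share covers more genes than the 14668 tested here, so the 9 cannot be set against it over the 31 members.

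**Figure D1:**
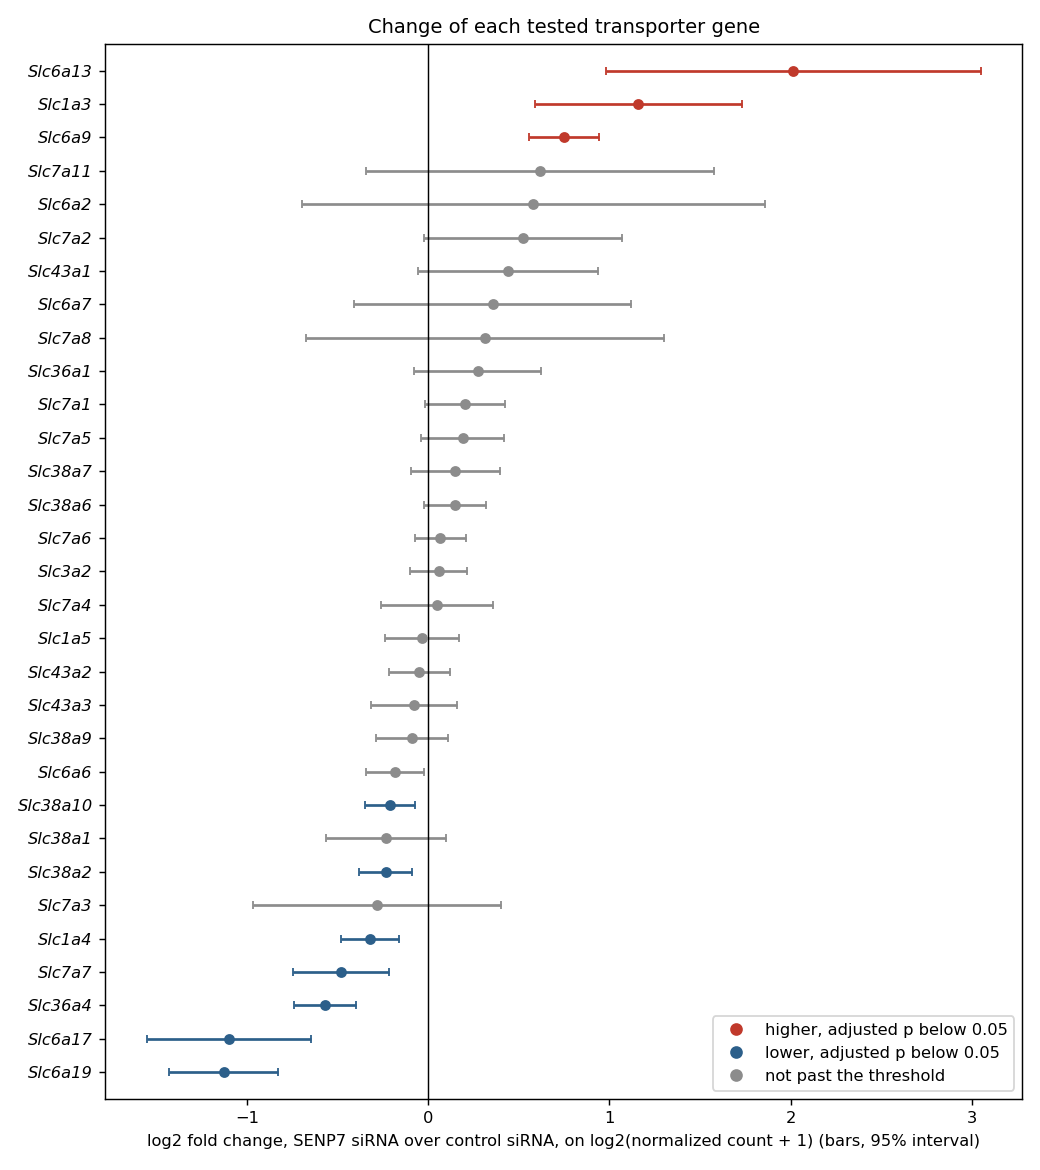
Log2 fold changes (SENP7 siRNA relative to control siRNA) of the 31 tested transporter genes, on log2(normalized count + 1), with the 95% interval from limma as bars. The 3 genes that rose stand at the top, the 7 that fell are in the lower part, and the widest intervals belong to genes with few reads or with a replicate 3 that stood apart.

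The transporter transcripts of these myotubes were dominated by a few genes. Levels between genes are compared as normalized counts per kb of exon length. Slc6a6, the taurine carrier, was at 2421 ± 62.3 per kb in SENP7 siRNA libraries and 2749 ± 143 per kb in control siRNA libraries. Next came, in SENP7 siRNA libraries, Slc7a5 at 1967 ± 261, Slc38a2 at 1284 ± 47.8, Slc3a2 at 1253 ± 90.7 and Slc38a10 at 714 ± 16.8 per kb. In control siRNA libraries Slc7a5 was at 1717 ± 121, Slc38a2 at 1512 ± 56.0, Slc3a2 at 1202 ± 50.3 and Slc38a10 at 828 ± 45.0 per kb. These 5 held the same ranks in both groups, while Slc38a2 and Slc3a2 did not differ beyond their spread with SENP7 siRNA. Together with Slc38a7 they made up 76.7% to 79.1% of the per-kb sum over all members in SENP7 siRNA libraries and 78.6% to 80.1% in control siRNA libraries. The per-kb sum over all members was 10352 ± 71.7 with SENP7 siRNA and 10595 ± 600.2 with control siRNA (SD, n = 3 each).

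**Figure D2:**
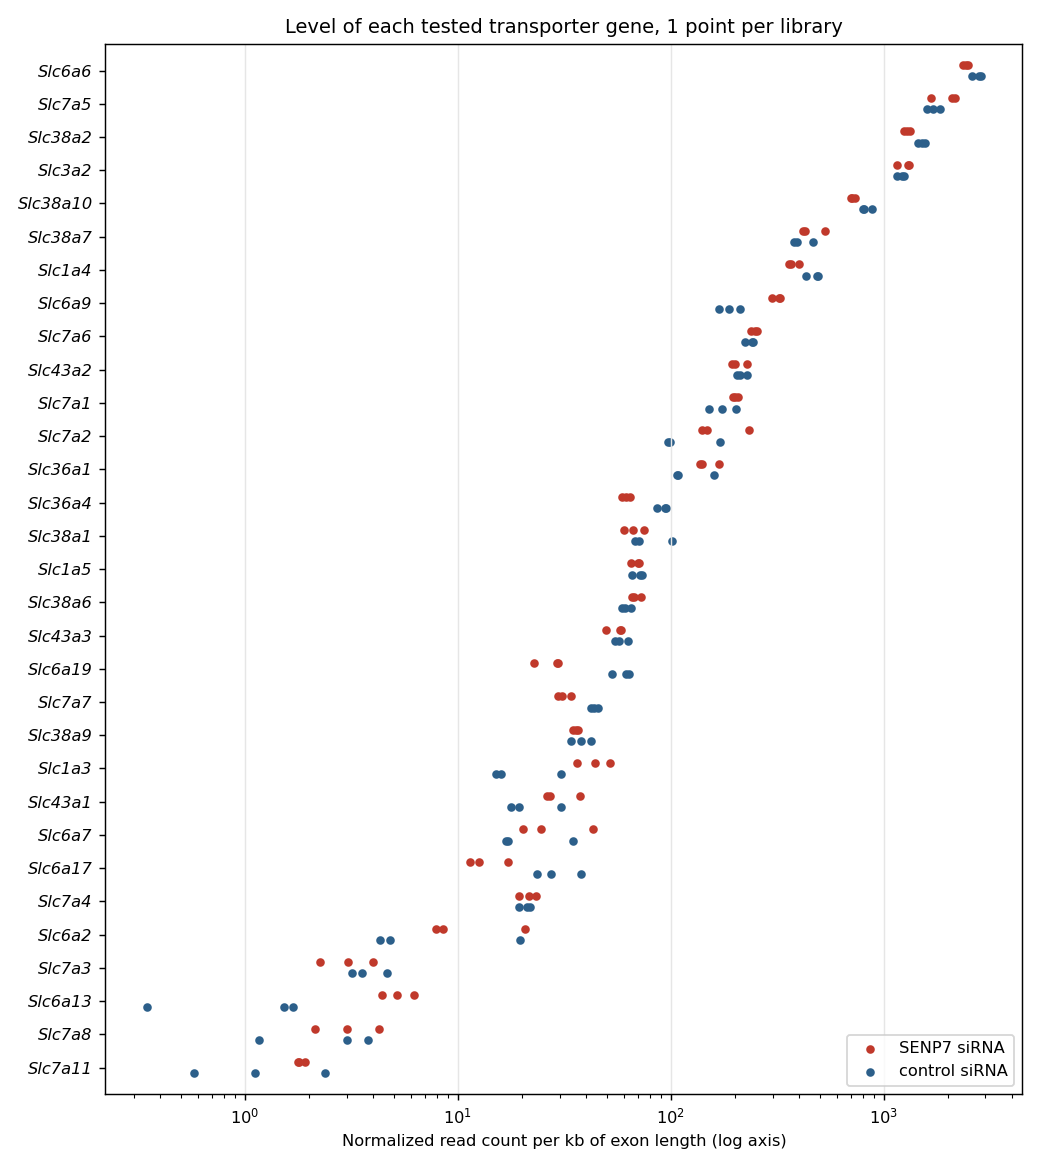
Normalized read count per kb of exon length for each of the 31 tested transporter genes, on a log axis, with 1 point per library and SENP7 siRNA drawn above control siRNA. Levels span from Slc6a6, above 2000 per kb in every library, to Slc7a11, the lowest by the mean over all 6 libraries. Slc7a11 was at 1.82 ± 0.084 per kb with SENP7 siRNA and 1.36 ± 0.92 per kb with control siRNA. In control siRNA libraries alone Slc6a13 was lower, at 1.18 ± 0.73 per kb.

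Among carriers of acidic amino acids, Slc1a3 was the only member with enough reads, and it rose. Slc1a3, the glial glutamate and aspartate transporter also known as GLAST (chromosome 15, 8634124 to 8710764, minus strand, GRCm38), had 310, 375 and 443 normalized counts in SENP7 siRNA replicates 1, 2 and 3, against 136, 129 and 261 in control siRNA replicates 1, 2 and 3. The groups did not overlap, and replicate 3 was the highest of both. The fold was 2.15 and the log2 fold change 1.16 ± 0.25 (SE, adjusted p = 0.0126). That call was lost without SENP7 siRNA replicates 2 or 3 (adjusted p = 0.0533 and 0.0519), without control siRNA replicate 2 (0.0658) and with no filter on low genes (0.111), with 1.96e-05 to 0.111 over all settings. The other acidic carriers did not meet the filter on counts. Slc1a6 had 32 reads over the 3 SENP7 siRNA libraries and 10 over the 3 control siRNA libraries, and 17.7 of its normalized counts were in SENP7 siRNA replicate 1 against 5.35 and 6.63 in replicates 2 and 3. Slc1a1 and Slc1a7 had 3 reads or fewer in all, and Slc1a2, the main glutamate carrier of astrocytes, was listed at 0.

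Of the neutral exchangers of the same family, Slc1a4 fell. Slc1a4, known as ASCT1, which carries serine, alanine and cysteine (chromosome 11, 20302180 to 20332713, minus strand), had 1440, 1412 and 1567 normalized counts with SENP7 siRNA, against 1918, 1698 and 1912 with control siRNA. All SENP7 siRNA values lay below all control siRNA values, and the log2 fold change was -0.32 ± 0.07 (SE, adjusted p = 0.0133). The call was lost without SENP7 siRNA replicate 1 (adjusted p = 0.0631) or replicate 2 (0.0681), with 0.00203 to 0.0681 over all settings. Slc1a5, the glutamine exchanger ASCT2, averaged 286 ± 13.9 with SENP7 siRNA and 293 ± 17.3 with control siRNA and did not pass (log2 fold change -0.03, 95% interval -0.24 to 0.17). Its sign turned without SENP7 siRNA replicate 3 or control siRNA replicate 3.

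Slc1a4 is known as a target of ATF4, the transcription factor that answers amino acid shortage, so promoters were searched for the letters TGATGNAA, the core of the composite element that ATF4 and C/EBP factors bind, which read TTNCATCA on the other strand. Of the 60 members, 43 had a promoter in the RefSeq table of GRCm38.p6, which gives 250 bases before and 50 after a start site. The motif was in 1304 of 32851 promoters of that length (3.97%), in 5 of the 64 promoters of members (7.81%) and in 4 of the 33 promoters of tested members (12.1%), of which 2 are overlapping windows of Slc7a7 that share a match. Among the 10 genes that changed, all of which had a promoter in the table, it was found for Slc1a4 and Slc7a7. Of the 21 tested members with a promoter, the remaining match was in Slc7a11, the cystine carrier. These 3 promoters are shown 5′ to 3′ on the gene's strand with each match in capitals. That of Slc1a4 covers chr11:20332664-20332963, that of Slc7a11 chr3:50443564-50443863 and that of Slc7a7 chr14:54417895-54418194, all on the minus strand.
Slc1a4: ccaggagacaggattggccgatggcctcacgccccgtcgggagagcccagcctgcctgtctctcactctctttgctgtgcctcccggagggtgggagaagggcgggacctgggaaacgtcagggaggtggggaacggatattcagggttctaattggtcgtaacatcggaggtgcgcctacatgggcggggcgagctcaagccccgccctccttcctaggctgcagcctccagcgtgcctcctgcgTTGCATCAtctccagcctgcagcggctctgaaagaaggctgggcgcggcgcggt
Slc7a11: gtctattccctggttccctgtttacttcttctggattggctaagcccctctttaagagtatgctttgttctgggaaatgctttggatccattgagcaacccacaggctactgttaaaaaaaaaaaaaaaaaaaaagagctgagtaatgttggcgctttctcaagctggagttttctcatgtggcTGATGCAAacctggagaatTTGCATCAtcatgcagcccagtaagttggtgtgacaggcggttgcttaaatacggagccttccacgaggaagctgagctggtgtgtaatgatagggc
Slc7a7: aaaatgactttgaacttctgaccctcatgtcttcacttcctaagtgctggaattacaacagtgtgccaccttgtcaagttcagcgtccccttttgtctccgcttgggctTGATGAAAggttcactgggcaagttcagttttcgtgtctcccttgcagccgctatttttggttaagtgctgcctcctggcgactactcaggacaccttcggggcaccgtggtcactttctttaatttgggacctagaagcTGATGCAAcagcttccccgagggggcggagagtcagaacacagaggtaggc
In Slc1a4 the match began 4 bases before the start site, and in Slc7a11 the 2 matches, in opposite orientations, began 66 and 47 bases before it. In Slc7a7 they began 141 bases and 1 base before it, and the second of these letters also lies in another, overlapping promoter window of the gene. A match is a run of letters and does not show that a factor was bound there. Bases outside these windows were not searched, so a missing match does not show that a gene lacks the element.

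The glycine carrier Slc6a9 rose. Slc6a9, known as GlyT1, which takes up glycine with sodium and chloride (chromosome 4, 117834506 to 117875198, plus strand), had 1673, 1660 and 1541 normalized counts in SENP7 siRNA replicates 1, 2 and 3, against 866, 966 and 1082 in control siRNA replicates 1, 2 and 3. The lowest SENP7 siRNA value was well above the highest control siRNA value, 1.67-fold higher on average (log2 fold change 0.75 ± 0.09 SE, adjusted p = 0.000587). Exons of Ccdc24 on the opposite strand cover 27.8% of its exon length, and Ccdc24 averaged 13.3 normalized counts over the 6 libraries. Slc6a7, the brain proline carrier, had 84.3, 69.5 and 149 with SENP7 siRNA and 59.5, 57.9 and 120 with control siRNA. In both groups replicate 3 was far above the other two, and the gene did not pass (log2 fold change 0.36, adjusted p = 0.499). The second glycine carrier, Slc6a5, had 1 read with SENP7 siRNA and 5 with control siRNA.

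Carriers of GABA, betaine and taurine were represented by one abundant gene. Slc6a6, the taurine carrier (chromosome 6, 91684053 to 91759066, plus strand), had 20627, 19891 and 20913 normalized counts with SENP7 siRNA, against 21866, 23776 and 24107 with control siRNA. The groups did not overlap, yet the gene missed the threshold (log2 fold change -0.18, 95% interval -0.34 to -0.02, adjusted p = 0.104), as it did in every alternative setting run. Slc6a13, the GABA carrier GAT2 (chromosome 6, 121300227 to 121337733, plus strand), rose at a very low level, with 15.1, 12.8 and 18.0 normalized counts in SENP7 siRNA libraries and 1.01, 4.45 and 4.86 in control siRNA libraries. It met the filter on counts solely through the SENP7 siRNA libraries, where it had 48 reads in all, against 10 in control siRNA libraries. The log2 fold change was 2.01 ± 0.46 (SE, adjusted p = 0.0149), and the call was lost without SENP7 siRNA replicate 1 (adjusted p = 0.0551) or replicate 3 (0.0598), with 0.00181 to 0.0598 over the settings in which it was tested. With so few reads the fold depends on the pseudocount, at 1.04 on the log2 scale with a pseudocount of 8. The log2 fold change in the authors' deposited table, from their own fit, was 0.66. Slc6a11 and Slc6a12 had 1 read each in all.

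Both tested carriers of neutral amino acids in the Slc6 family fell by more than 2-fold, where 10.7% of all tested genes fell. These 2 genes are too few to describe the class. Slc6a19, known as B0AT1, the main neutral amino acid carrier of gut and kidney epithelium (chromosome 13, 73679745 to 73704865, minus strand), had 146, 148 and 114 normalized counts with SENP7 siRNA, against 309, 317 and 266 with control siRNA. Replicate 3 was the lowest in both groups and the groups lay far apart (log2 fold change -1.13 ± 0.13 SE, adjusted p = 0.000701). Slc6a17, known as NTT4, a carrier of neuronal vesicles (chromosome 3, 107467543 to 107518018, minus strand), had 129, 118 and 176 with SENP7 siRNA, against 243, 280 and 390 with control siRNA. Here replicate 3 was the highest in both groups, and the log2 fold change was -1.10 ± 0.20 (SE, adjusted p = 0.00554). Summed per kb over the 7 members of this class, the level was 41.4 ± 1.35 with SENP7 siRNA and 89.8 ± 3.19 with control siRNA (SD, n = 3 each). Nearly all of it came from Slc6a19 (27.1 per kb with SENP7 siRNA, 59.4 with control siRNA) and Slc6a17 (13.7 and 29.6). The sum therefore restates these 2 genes. Slc6a18, which lies beside Slc6a19 on chromosome 13, had 8 reads in each group.

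**Figure D3:**
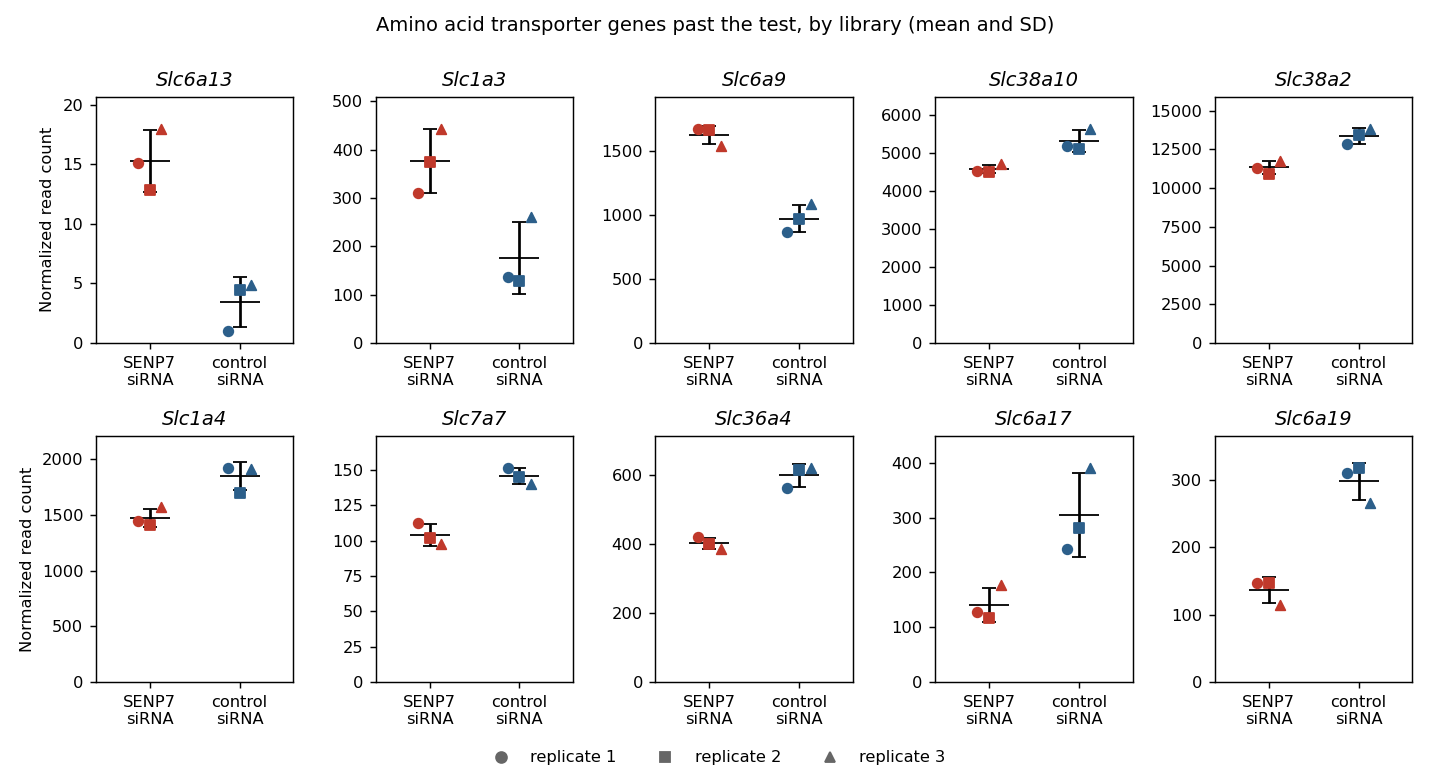
Normalized read counts in each library for the 10 transporter genes past the test, with SENP7 siRNA left of control siRNA, the marker shape giving the replicate number and the bars the mean and SD (n = 3). No gene has overlapping groups, the differences of Slc38a10 and Slc38a2 are small beside those of Slc6a19 and Slc6a17, and Slc6a13 stays below 20 counts.

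In the Slc38 family, carriers of glutamine and other small neutral amino acids, 2 of 6 tested genes fell and none rose, beside 10.7% and 10.2% of all tested genes, a number too small to describe the family. Slc38a2, known as SNAT2, the system A carrier that cells induce when amino acids are short (chromosome 15, 96687392 to 96699730, minus strand), had 11325, 10933 and 11778 normalized counts with SENP7 siRNA, against 12847, 13407 and 13833 with control siRNA. The step was small and the groups did not overlap (log2 fold change -0.24 ± 0.07 SE, adjusted p = 0.0327). The call was lost under quantile normalization (adjusted p = 0.0768), without SENP7 siRNA replicates 1 or 2 (0.123 and 0.156) and without control siRNA replicate 2 (0.112), with 0.00586 to 0.156 over all settings. Slc38a10 (chromosome 11, 120103960 to 120151346, minus strand) had 4538, 4507 and 4707 with SENP7 siRNA, against 5200, 5099 and 5642 with control siRNA, likewise without overlap (log2 fold change -0.21 ± 0.06 SE, adjusted p = 0.0390). Its call was lost without any 1 library other than control siRNA replicate 3 (adjusted p = 0.0531 to 0.152) and under quantile normalization (0.116), with 0.0167 to 0.152 over all settings.

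The remaining Slc38 genes did not pass. Slc38a1, the other system A carrier of these cells (chromosome 15, 96571418 to 96642913, minus strand), lies near Slc38a2 and had 1145, 1040 and 1282 normalized counts with SENP7 siRNA, against 1221, 1166 and 1746 with control siRNA (log2 fold change -0.23, adjusted p = 0.294). Control siRNA replicate 3 stood above all other libraries there, and without it the log2 fold change was -0.05 (adjusted p = 0.682). Over all settings the adjusted p of Slc38a1 ran from 0.0353, with the replicate number as a block, to 0.682. Slc38a4, the next system A gene on that chromosome, had 9 reads with SENP7 siRNA and 2 with control siRNA. Slc38a7, a lysosomal glutamine carrier, averaged 1894 ± 256 with SENP7 siRNA and 1705 ± 194 with control siRNA (log2 fold change 0.15, 95% interval -0.10 to 0.39). Slc38a9, the lysosomal arginine sensor of mTORC1, averaged 594 ± 15.5 with SENP7 siRNA and 636 ± 68.9 with control siRNA (log2 fold change -0.09, 95% interval -0.29 to 0.11). Slc38a6 was higher in every SENP7 siRNA library, at 511, 522 and 562 against 459, 475 and 506 with control siRNA, but was not past the threshold (0.15 on the log2 scale, adjusted p = 0.206).

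Of the Slc36 family, Slc36a4 fell. Slc36a4, known as PAT4, a carrier of proline and tryptophan (chromosome 9, 15709738 to 15743361, plus strand), had 419, 401 and 387 normalized counts with SENP7 siRNA, against 561, 614 and 620 with control siRNA. The values within each group were close together and the groups far apart (log2 fold change -0.57 ± 0.08 SE, adjusted p = 0.00126). Slc36a1, the lysosomal carrier PAT1, had 774, 783 and 951 with SENP7 siRNA, against 600, 605 and 898 with control siRNA, and did not pass (log2 fold change 0.27, adjusted p = 0.248). Without control siRNA replicate 3 it did, at 0.47 on the log2 scale (adjusted p = 0.00296, with 0.00296 to 0.556 over all settings). Slc36a2 had 1 read in each group and Slc36a3 was listed at 0.

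The exchanger of large neutral amino acids did not pass. Slc7a5, known as LAT1 (chromosome 8, 121881150 to 121907694, minus strand), had 7728, 7965 and 6183 normalized counts in SENP7 siRNA replicates 1, 2 and 3, against 5935, 6335 and 6830 in control siRNA replicates 1, 2 and 3. SENP7 siRNA replicates 1 and 2 were above all control siRNA libraries while replicate 3 lay among them, and the log2 fold change was 0.19 (95% interval -0.04 to 0.42, adjusted p = 0.225). Without SENP7 siRNA replicate 3 it was 0.30 (adjusted p = 0.0388, with 0.0388 to 0.533 over all settings). Its heavy chain partner Slc3a2, known as CD98 (chromosome 19, 8706882 to 8723369, minus strand), had 4568, 4642 and 4054 with SENP7 siRNA, against 4292, 4045 and 4390 with control siRNA. Here too SENP7 siRNA replicate 3 was the lowest of its group, and the log2 fold change was 0.06 (95% interval -0.10 to 0.22). The other heavy chain, Slc3a1, had 16 reads with SENP7 siRNA and 24 with control siRNA.

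Of the other light chains that pair with these heavy chains, Slc7a7 fell. Slc7a7, known as y+LAT1, which exports cationic amino acids (chromosome 14, 54369442 to 54417780, minus strand), had 113, 102 and 97.6 normalized counts with SENP7 siRNA, against 151, 145 and 140.1 with control siRNA. No values overlapped, and the log2 fold change was -0.48 ± 0.12 (SE, adjusted p = 0.0203). The call was lost without SENP7 siRNA replicates 2 or 3 (adjusted p = 0.0790 and 0.0598) and without control siRNA replicates 1 or 2 (0.0584 and 0.0706), and its adjusted p ran from 0.0157 to 0.0790 over the settings. Oxa1l on the opposite strand covers 7.00% of its exon length at 1776 normalized counts and rose (log2 fold change 0.20, adjusted p = 0.0366). The sources used here do not give the strand setting of the counting, and without it reads of the pair cannot be told apart. The related Slc7a6, y+LAT2, was the more abundant of the pair per length, at 246 ± 7.58 normalized counts per kb with SENP7 siRNA and 235 ± 10.1 per kb with control siRNA, beside 31.4 ± 2.36 and 43.8 ± 1.69 per kb for Slc7a7. Slc7a6 did not pass (log2 fold change 0.07, 95% interval -0.07 to 0.21).

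The cystine carrier Slc7a11, known as xCT (chromosome 3, 49892526 to 50443614, minus strand), was scarce, at 24.8, 26.7 and 24.6 normalized counts with SENP7 siRNA, against 8.06, 15.6 and 33.1 with control siRNA. The control siRNA libraries were spread widely around the SENP7 siRNA values (log2 fold change 0.61, adjusted p = 0.344). Without control siRNA replicate 3 the log2 fold change was 1.11 (adjusted p = 0.0202, with 0.0202 to 0.796 over the settings in which it was tested). Slc7a8, LAT2, averaged 15.7 ± 5.40 with SENP7 siRNA and 13.3 ± 6.73 with control siRNA, and its sign turned without control siRNA replicate 3. Slc7a9, Slc7a10, Slc7a12, Slc7a13 and Slc7a15 were listed at 0.

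None of the 4 tested carriers of cationic amino acids passed, where 20.9% of all tested genes did, and 4 genes are too few to describe the class. Slc7a1, known as CAT1, the general arginine carrier (chromosome 5, 148327410 to 148399904, minus strand), had 2386, 2304 and 2262 normalized counts with SENP7 siRNA, against 1739.7, 2014 and 2338 with control siRNA. Control siRNA replicate 3 lay among the SENP7 siRNA values (log2 fold change 0.20, 95% interval -0.02 to 0.42, adjusted p = 0.181), and without it the log2 fold change was 0.31 (adjusted p = 0.00669, with 0.00669 to 0.433 over all settings). Slc7a2, known as CAT2, which is expressed in muscle and liver (chromosome 8, 40862396 to 40922308, plus strand), had 1285, 1347 and 2135 with SENP7 siRNA, against 885, 905 and 1556 with control siRNA. Replicate 3 was high in both groups, so that they overlapped (log2 fold change 0.52, adjusted p = 0.163). Without control siRNA replicate 3 the log2 fold change was 0.79 (adjusted p = 0.0436). Over all settings its adjusted p ran from 7.67e-05, with the replicate number as a block, to 0.508. Slc7a3 averaged 11.7 ± 3.30 with SENP7 siRNA and 14.3 ± 2.83 with control siRNA, and Slc7a4 averaged 89.1 ± 7.97 with SENP7 siRNA and 86.1 ± 5.36 with control siRNA. P2rx6 on the opposite strand covers 13.3% of the exon length of Slc7a4 at 224 normalized counts, against 87.6 for Slc7a4 itself, and rose (log2 fold change 0.43, adjusted p = 0.0491). Reads of this pair cannot be told apart either. The log2 fold change of Slc7a4 was 0.05, and its sign turned in 3 of the settings.

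The facilitated Slc43 carriers did not pass either. Slc43a1, known as LAT3, a carrier of branched-chain amino acids and phenylalanine, had 149, 155 and 213 normalized counts with SENP7 siRNA, against 102, 110.1 and 175 with control siRNA. The order of the replicates was the same in both groups, with replicate 3 highest (log2 fold change 0.44, adjusted p = 0.193), and without control siRNA replicate 3 the log2 fold change was 0.68 (adjusted p = 0.00918, with 0.00918 to 0.469 over all settings). Slc43a2, LAT4, was the most abundant of the family per length, at 207 ± 17.7 normalized counts per kb with SENP7 siRNA and 214 ± 11.5 per kb with control siRNA (log2 fold change -0.05, 95% interval -0.22 to 0.12). Slc43a3, which carries purine nucleobases and not amino acids, had 258, 261 and 222 normalized counts with SENP7 siRNA and 256, 245 and 282 with control siRNA (log2 fold change -0.08).

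Replicate 3 stood above replicates 1 and 2 of its own group for several members, with either siRNA. The largest such step was in Slc6a2, the noradrenaline carrier, with 49.7, 53.5 and 130 normalized counts in SENP7 siRNA replicates 1, 2 and 3, against 27.2, 30.0 and 123 in control siRNA replicates 1, 2 and 3. Replicate 3 was 2.52 times the mean of replicates 1 and 2 with SENP7 siRNA and 4.28 times with control siRNA, a wider gap than that between the treatments (log2 fold change 0.58, adjusted p = 0.511). For Slc6a7 the same ratios were 1.93 and 2.04, and for Slc7a2 they were 1.62 and 1.74. Replicate 3 was higher by more than 0.5 on the log2 scale in both groups for 4 of 31 tested members (Slc6a2, Slc6a7, Slc7a2 and Slc6a17), or 12.9%, against 1.64% of all tested genes, a step chosen after the values were seen. Without control siRNA replicate 3, Slc6a2 had a log2 fold change of 1.27 (adjusted p = 0.0293, with 0.0293 to 0.904 over all settings).

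**Figure D4:**
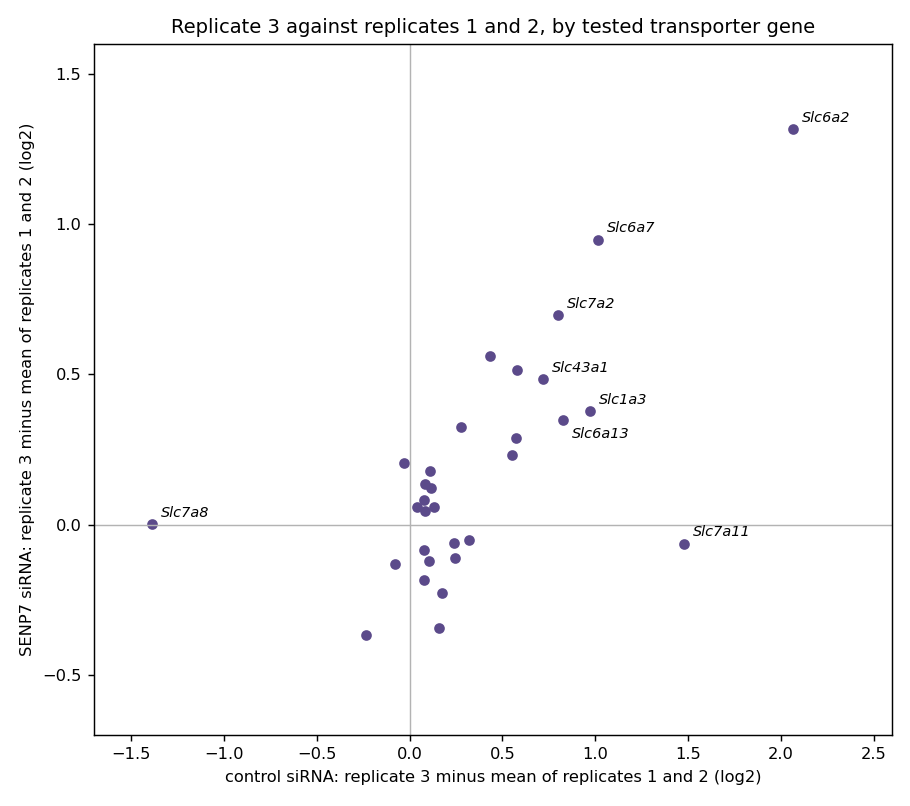
For each tested transporter gene, the log2 value of replicate 3 minus the mean of replicates 1 and 2, with SENP7 siRNA on the vertical and control siRNA on the horizontal axis. Slc6a2, Slc6a7 and Slc7a2 lie at the upper right, high in replicate 3 of both groups, whereas Slc7a11 (high) and Slc7a8 (low) stand apart along the control siRNA axis alone.

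Genes around these carriers were examined as lists. Of 33 tested genes that relay amino acid supply to mTORC1, 3 rose and 2 fell, beside 10.2% and 10.7% of all tested genes. The median log2 fold change was -0.0033, beside -0.0025 over all tested genes. Rragd, a Rag GTPase that recruits mTORC1 to the lysosome, had 570, 571 and 523 normalized counts with SENP7 siRNA, against 240, 286 and 327 with control siRNA (log2 fold change 0.97 ± 0.11 SE, adjusted p = 0.000706). Its values did not overlap between the groups. Flcn, which acts on that GTPase, also rose (log2 fold change 0.25), and Deptor, an inhibitor bound to mTOR, fell to 6385 ± 667 with SENP7 siRNA, against 9260 ± 1076 with control siRNA (log2 fold change -0.53, adjusted p = 0.00709). Bmt2, the methionine sensor SAMTOR, fell (log2 fold change -0.28). Leaving out 1 library moved the rising genes of the list between 1 (without SENP7 siRNA replicates 1 or 2 or control siRNA replicate 2) and 6 (without control siRNA replicate 3), and the falling ones to 1 without any library but control siRNA replicate 3.

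Of 25 tested genes among ATF4 and its targets, which respond to amino acid shortage, 2 rose and 1 fell, where 20.9% of all tested genes changed in either direction (median log2 fold change -0.06). The list also held Ddit3, which was matched by name to an entry with 105 bases of exon at 0 in every library. Ddit3 was therefore not assessed. Fgf21, a hormone that muscle releases under stress, had 1216, 1355 and 1050 normalized counts with SENP7 siRNA, against 688, 655 and 468 with control siRNA (log2 fold change 1.01 ± 0.15 SE, adjusted p = 0.00205). Every SENP7 siRNA value of Fgf21 was above every control siRNA value. Eif4ebp1, a repressor of translation that mTORC1 switches off, rose by 0.26 on the log2 scale (adjusted p = 0.0496, close to the threshold). Vldlr, a lipoprotein receptor, fell by 0.89. Atf4 itself averaged a log2 fold change of -0.13 (adjusted p = 0.336) and Asns, the asparagine synthetase gene, -0.10 (adjusted p = 0.581). The summed level of the list was 46490, 47134 and 38718 in SENP7 siRNA replicates 1, 2 and 3, against 45602, 44083 and 42390 in control siRNA replicates 1, 2 and 3, so that SENP7 siRNA replicate 3 was lowest, as it was for Slc7a5 and Slc3a2 within their group. Without SENP7 siRNA replicate 3, 6 genes rose, and without control siRNA replicate 3, 4 rose and 5 fell. None fell without SENP7 siRNA replicates 1 or 2 or without control siRNA replicates 1 or 2, and 1 rose without SENP7 siRNA replicates 1 or 2 or control siRNA replicate 2. None of the 20 cytosolic aminoacyl-tRNA synthetase genes, all tested, passed in limma (median log2 fold change -0.05), edgeR or DESeq2. At an unadjusted p below 0.05 in limma there was 1, and 1 fell without control siRNA replicate 3.

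Of 13 tested amino acid carriers outside these families, 1 rose and 2 fell, near the 20.9% of all tested genes that changed, with a median log2 fold change of 0.0030. Slc25a15, the mitochondrial ornithine carrier, rose (log2 fold change 0.29, adjusted p = 0.0462). Slc25a13, the mitochondrial aspartate and glutamate carrier citrin, had 7.10, 15.0 and 16.1 normalized counts with SENP7 siRNA, against 30.2, 35.6 and 24.3 with control siRNA (adjusted p = 0.0288). Slc17a7, a vesicular glutamate carrier, fell as well (adjusted p = 0.0210), at 8.12 ± 1.74 with SENP7 siRNA and 19.5 ± 3.64 with control siRNA, and met the filter solely through the control siRNA libraries. The fall was called for none of this list without SENP7 siRNA replicate 1 or control siRNA replicate 2, and for 1 gene without SENP7 siRNA replicate 2 or control siRNA replicate 1. No gene of the list rose without any 1 library other than control siRNA replicate 3, without which 2 rose, nor in DESeq2 on the recovered reads.

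Of 23 tested genes for enzymes that use or break down amino acids, 9 rose and 3 fell, beside 10.2% and 10.7% of all tested genes, with a median log2 fold change of 0.09. Gpt2, the mitochondrial alanine aminotransferase, had 6464, 6282 and 7528 normalized counts with SENP7 siRNA, against 2452, 2473 and 2854 with control siRNA (log2 fold change 1.38 ± 0.09 SE, adjusted p = 3.27e-05). Gpt, its cytosolic relative, had 1526, 1541 and 1618 with SENP7 siRNA, against 636, 723 and 610 with control siRNA (log2 fold change 1.25 ± 0.08 SE). Both genes were more than 2-fold higher with SENP7 siRNA and far from overlap. Glul, glutamine synthetase, averaged 5073 ± 244 with SENP7 siRNA and 2783 ± 410 with control siRNA (log2 fold change 0.87 ± 0.10 SE, adjusted p = 0.000524). Gatm, the first enzyme of creatine synthesis, rose by 0.68 on the log2 scale. The rising genes were 5 without SENP7 siRNA replicate 1 and 4 without SENP7 siRNA replicate 2 or control siRNA replicate 2, and 1 gene fell without control siRNA replicate 2.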

How the data were processed

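Polyadenylated RNA from 6 libraries was sequenced in paired reads with a directional kit, per the labels' protocols. Per the submitters' processing notes the build was GRCm38.p6 and the tools were STAR 2.6.1d, featureCounts 1.6.4, Trim Galore 0.6.4, DESeq2 and bcl2fastq. The strand setting and annotation release were not given. The deposited table held a normalized signal per gene and library, which from its values was the authors' read count divided by a factor per library, and exon lengths. Its log2 fold changes and adjusted p-values are the authors' deposited values, of which the calls are used where named.

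In each library 100% of positive values were whole multiples of its smallest step within 0.1 read, and reads were recovered by division. limma 3.58.1 (R 4.3.3), with a trend of variance on mean and robust empirical Bayes, was fitted on log2(normalized count + 1) with group as the sole term. Genes needed a normalized count of 10 or more in 3 or more libraries. Fold changes of low genes come out too small on this scale. The tests, two-sided, used Benjamini-Hochberg adjustment. The fit was also run on simulated counts, drawn independently for each library. Those counts held no step shared by replicate 3 of both groups, so that run cannot show how the fit handles such a step. Other settings tried were a replicate block, edgeR 4.0.16 and DESeq2 1.42.0 on recovered reads, TMM and quantile scaling, pseudocounts of 0.5 and 8, no filter, a mean of at least 50, and each library left out.

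The members and gene lists were chosen with earlier results of these data known. Named were members meeting the filter, others by read totals, and up to 4 called genes per list with the smallest adjusted p; Atf4, Asns and single marker genes were picked out after values were seen. Mars1 and Slc66a1 were looked up as Mars and Pqlc2. Replicates are biological per the series' design text, and their number and the reads per gene limit the precision.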

Additional observations from a re-analysis of the deposited data

How the results depend on the processing

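Across 15 alternative settings, Slc6a9, Slc6a19, Slc6a17 and Slc36a4 passed the test with the same sign in each, and none of the 10 changed transporter genes reversed its sign. Leaving out 1 library gave 2 to 9 rising and 3 to 7 falling members, against 3 and 7 with all libraries. In the other settings the falling members were 5 under quantile normalization, 8 with the replicate block and 7 otherwise. The rising members were 6 with the replicate number as a block and 2 or 3 otherwise. With the block, Slc36a1, Slc43a1, Slc7a2 and, as a fall, Slc38a1 were added (adjusted p of 0.0204, 0.0237, 7.67e-05 and 0.0353). Deviations of same-numbered libraries from their group means correlated at 0.13, 0.062 and 0.25 for numbers 1, 2 and 3. SENP7 siRNA replicate 2 correlated best with control siRNA replicate 1 (0.14), so numbers 1 and 2 did not single out partners. Number 3 gave the highest correlation of any pair. SENP7 siRNA replicate 3 was at -0.22 and -0.0995 against control siRNA replicates 1 and 2. Control siRNA replicate 3 was at -0.15 and -0.16 against SENP7 siRNA replicates 1 and 2. Deviations within a group cancel out for each gene, so these negative values largely follow from the 0.25 and are no separate support. The labels do not say what a number shares, and the main fit did not pair the libraries.

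Signs turned for 3 members that did not pass. With 1 library left out, Slc1a5 ran from -0.082 to 0.0070, Slc7a4 from -0.013 to 0.11 and Slc7a8 from -0.15 to 0.62 on the log2 scale. Slc1a5 was at 0.0070 without SENP7 siRNA replicate 3 and 0.00080 without control siRNA replicate 3. Slc7a4 was at -0.0018 under quantile normalization, -0.013 without SENP7 siRNA replicate 3 and -0.0036 without control siRNA replicate 2, and Slc7a8 was at -0.15 without control siRNA replicate 3. The cause was not tested. TMM and quantile scaling moved the median of all tested genes to 0.0049 and -0.0064. The 19 members below the filter had at most 42 reads in all, and none of those passed when the filter was dropped.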
